A study of Mus musculus with 80 samples.

Results

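SLAM family receptors are cell surface proteins of the immunoglobulin superfamily. Most of them bind the same receptor on a neighbouring cell, and their tails carry switch motifs that recruit the adaptors SAP and EAT-2 and tyrosine phosphatases. CD48, the member without a signalling tail, is held in the membrane by a lipid anchor and is the ligand of CD244. In mouse bone marrow the family defines stem cell gates, since hematopoietic stem cells (HSCs) carry CD150, the product of Slamf1, and lack CD48, which appears on their multipotent and restricted descendants.

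The 6 members described here, Slamf1, Cd48, Cd84, Ly9, Slamf6 and Slamf7, were chosen by gene symbol, out of the 21825 symbols of the bulk RNA-seq tables and the 21901 features of the single-cell (scRNA-seq) matrices, and each was found in both. The bulk data comprised 24 libraries in 8 groups of 3. Young HSCs came from male C57BL/6 mice of 2 to 3 months and old HSCs from mice of 22 to 24 months, all sorted as Lin- Sca-1+ c-Kit+ (LSK) CD48- CD34- CD150+ bone marrow cells. Old HSCs of 3 mice were split by CD150 protein into groups of 25% each, named G1 (lowest) to G4 (highest). CD150-low and CD150-high old HSCs, with the donor allele CD45.2, were transplanted into lethally irradiated young CD45.1 mice together with Sca-1-depleted helper marrow, and donor cells were recovered on day 4. The gate used to recover them on day 4 is not given in the sources used here, although the paper calls the profiled cells sorted donor HSCs. It also reports from flow cytometry that most transplanted old HSCs were still long-term HSCs on that day. The 4 scRNA-seq libraries, 1 per condition, hold young HSCs, old HSCs and the CD45.2 LSK progeny of CD150-low or CD150-high old HSCs on day 14, which were not gated on CD48 or CD150. Because the sorts used CD150 and CD48 protein, the rise of Slamf1 from G1 to G4 and the low Cd48 of fresh HSCs describe the gates and are not independent findings.

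The bulk values are FPKM, fragments scaled for the length of the transcript and the size of the library, so levels can be compared between genes within a library. Their sums ran from 549860.6 to 723258.7 per library, and read totals are not in the tables, so the depth is unknown. All 13 mitochondrially encoded genes were listed at 0 in every library, so a 0 is given as listed and not as absence. The old HSC libraries of G1 mouse 3 and G2 mouse 2 stood apart from the other libraries of their groups, with the lowest correlation between replicates across genes at 0.962 in G1 and 0.973 in G2 against 0.9775 or above in the other groups. HSC markers were present in all 8 groups, with all 12 above 0 in each library and sums of 1140 to 1978 FPKM in fresh and 897.3 to 1138 in transplanted cells. Tests used limma with a mean-variance trend on log2(FPKM + 1), over the genes whose mean reached 1 FPKM in a compared group. Called genes have an adjusted p (Benjamini-Hochberg) under 0.05 with a change of over 2-fold in either direction. Labels do not say whether the young, old and transplanted libraries come from separate mice, so their p-values measure the spread between these libraries.

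The 6 genes lie side by side on chromosome 1 of GRCm38 (mm10), within 360.3 kb from 171588613 to 171948958. In chromosomal order they are Ly9 (171588613 to 171607410), Slamf7 (171632403 to 171653037), Cd48 (171681245 to 171705258), Slamf1 (171767131 to 171801184), Cd84 (171839697 to 171890718) and Slamf6 (171917458 to 171948958). Cd244a, which encodes the CD48 receptor, adjoins Ly9 at 171558718 to 171585316. The 250 bases before the start of transcription in RefSeq (GRCm38.p6) are shown for the 3 members with the highest bulk levels, which follow 3 different courses over the groups. These windows are chr1:171766882-171767131 for Slamf1, chr1:171681742-171681991 for Cd48 and chr1:171839447-171839696 for Cd84, each on the plus strand. The Slamf1 and Cd84 windows end at the start of their genes, while the Cd48 window lies inside the gene as given above, before a later RefSeq start at 171681992 that is 747 bases from the outermost one. They are written 5′ to 3′, with the 4 letters GGAA or their reverse complement TTCC in capitals, the core that ETS factors read.
Slamf1: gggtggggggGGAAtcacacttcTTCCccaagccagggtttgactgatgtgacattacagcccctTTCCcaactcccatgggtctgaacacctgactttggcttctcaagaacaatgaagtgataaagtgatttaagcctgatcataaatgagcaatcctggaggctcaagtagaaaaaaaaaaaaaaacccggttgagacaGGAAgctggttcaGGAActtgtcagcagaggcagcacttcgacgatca
Cd48: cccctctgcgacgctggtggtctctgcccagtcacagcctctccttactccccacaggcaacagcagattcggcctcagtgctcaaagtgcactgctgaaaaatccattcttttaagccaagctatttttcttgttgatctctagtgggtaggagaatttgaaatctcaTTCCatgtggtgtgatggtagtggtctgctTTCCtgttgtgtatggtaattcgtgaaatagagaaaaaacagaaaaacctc
Cd84: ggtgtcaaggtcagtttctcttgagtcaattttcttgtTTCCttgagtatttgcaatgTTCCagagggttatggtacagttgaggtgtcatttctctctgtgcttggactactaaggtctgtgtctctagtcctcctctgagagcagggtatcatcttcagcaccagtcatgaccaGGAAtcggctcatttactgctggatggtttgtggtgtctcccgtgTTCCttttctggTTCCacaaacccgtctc

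The Slamf1 and Cd84 windows each held 5 matches to GGAA on either strand and the Cd48 window held 2, where the median over 32851 mouse promoters of this length was 3 and 93.4% held at least 1. GATA, read as TATC on the other strand, was found once in the Slamf1 and once in the Cd84 window and not in the Cd48 window, and 53.6% of all promoters held it. TGTGGT, the letters of a RUNX site, or ACCACA was present once in the Cd48 and once in the Cd84 window but not in that of Slamf1, against 14% of all promoters. CAGCTG, an E-box, matched none of these 3 windows and 13.0% of all. The 4 motifs do not contain each other, and a match or its lack describes these letters only. Slamf7 and Slamf6, also with a promoter entry, held 4 and 0 matches to GGAA, with the Slamf7 window also before an inner start, 4038 bases from the outermost one. No promoter is shown for Ly9.

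Slamf1 was detected in all 24 libraries, between 14.18 and 102.3 FPKM. From the lowest to the highest mean, the groups stood in the order CD150-low day 4, young, G1, CD150-high day 4, G2, old, G3 and G4. The libraries of young HSCs, G1 and CD150-high day 4 overlapped with their neighbours in this order, as did G2 and old HSCs, while the other neighbours were separated. Groups further apart in this order can still overlap, as CD150-low day 4 (14.18 to 16.75 FPKM) did with G1 (15.21 to 29.4). In the pairs of groups compared below, 13.2% to 56.0% of the genes tested were separated. Cd84 reached similar levels in fresh cells but had another order, with both transplanted groups lowest, young HSCs next, and old HSCs and G1 to G4 above, overlapping with each other. Cd48 had nearly the opposite order, with fresh HSCs at the bottom and the CD150-low day 4 group at the top.

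**Figure D1:**
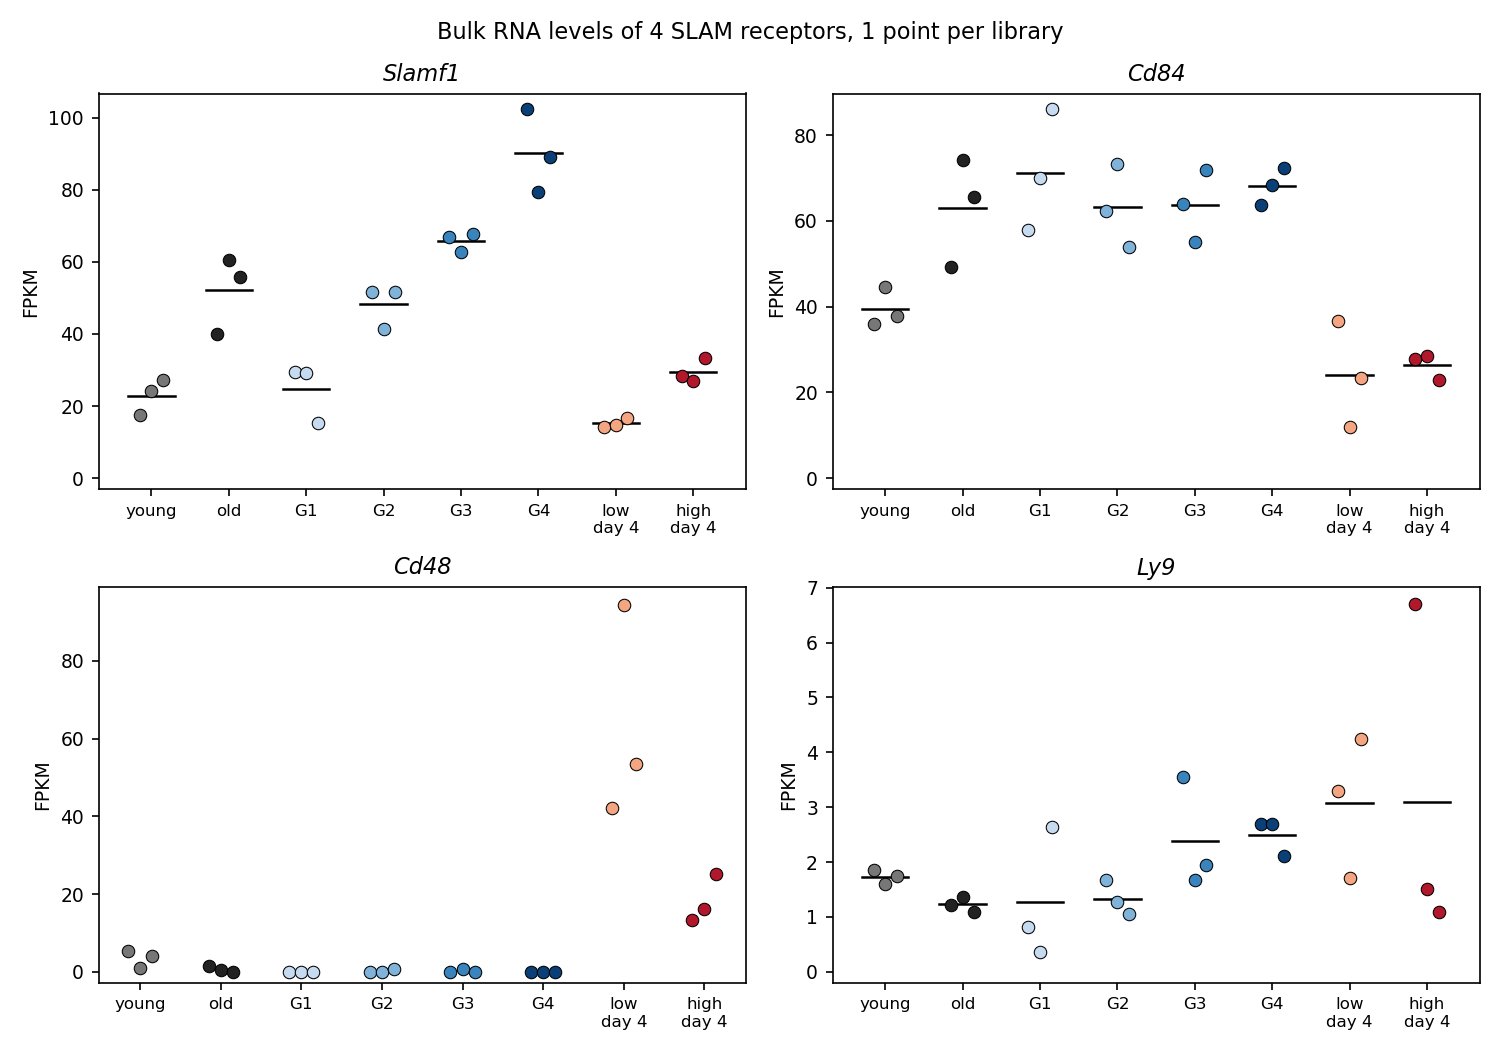
Bulk level (FPKM, linear axis) of Slamf1, Cd84, Cd48 and Ly9 in each of the 8 groups; 1 point is 1 library and the line is the mean of 3, left out for Cd48 because some of its libraries are listed at 0. Slamf1 climbs to 79.34 FPKM or more in G4, while Cd48 stays under 6 FPKM in fresh HSCs and exceeds 13 FPKM in all 6 transplanted libraries.

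Old and young HSCs were compared to ask how the members change with age. Slamf1 was 17.46, 24.11 and 27.2 FPKM in the young libraries (mean 22.9 ± 4.98, SD, n = 3) and 40.08, 60.56 and 55.83 in the old libraries (mean 52.2 ± 10.7). Every old library was above every young one, and the mean was 2.28-fold higher. Libraries of the 2 ages were separated, in one direction or the other, for 23.8% of the genes tested. In bulk libraries, fewer cells with a transcript and less of it per cell cannot be told apart. On the log2(FPKM + 1) scale the difference was 1.15 (SE 0.198, 95% interval 0.72 to 1.59, limma adjusted p = 0.00564). Slamf1 was the only called member of the 4 tested, where 3.65% of the 11279 genes tested were called. Without young replicate 1 the difference was 0.98, under the fold threshold, at an adjusted p of 0.0217, and with no filter on low values its adjusted p was 0.137.

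Cd84, a homophilic receptor best known on platelets, mast cells and lymphocytes, was 36.06, 44.53 and 37.9 FPKM in young HSCs and 49.32, 74.12 and 65.66 in old HSCs. Its young and old libraries did not overlap, a separation that 23.8% of the genes tested showed. The difference of 0.65 on the log2(FPKM + 1) scale (SE 0.163, adjusted p = 0.0377 in limma) was past the p-value threshold but under the fold threshold, so Cd84 was not called. Cd48 was 5.454, 1.024 and 4.057 FPKM in young and 1.564, 0.568 and 0 in old HSCs, with overlapping libraries and an adjusted p of 0.114 in limma. It passed the filter on low values through the young group only. Without young replicate 2 the difference passed, at -1.85 and an adjusted p of 0.034. Ly9, the homophilic receptor CD229, was 1.606 to 1.854 FPKM in young and 1.097 to 1.369 in old HSCs, a difference of -0.30 with an interval of -0.84 to 0.25 and a limma adjusted p of 0.588. The 14 macrophage markers summed to 28.5 to 34.49 FPKM in young and 10.16 to 15.49 in old libraries, with 3 of 7 tested called lower with age, and their part in these values was not tested.

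The groups G1 to G4 ask which members follow CD150 protein among old HSCs. Slamf1, whose product set the groups, was 29.4, 51.57, 66.8 and 102.3 FPKM from G1 to G4 in mouse 1. In mouse 2 it was 29.23, 41.38, 62.79 and 79.34 FPKM, and in mouse 3 it was 15.21, 51.63, 67.85 and 88.98. It climbed at each step in 3 of 3 mice, and G4 exceeded G1 by 3.48-fold, 2.71-fold and 5.85-fold. The linear term was 0.61 per step on the log2(FPKM + 1) scale (SE 0.074, limma adjusted p = 0.00138), as a check of the sort. It was the only member called of 3 tested, where 0.386% of the 11673 genes tested were called at this threshold, which has no fold limit. Without both libraries that stood apart, the term was 0.50 (adjusted p = 1.07e-05 in limma).

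Cd84 had no slope over G1 to G4 that passed the test. It was 57.82, 62.19, 63.98 and 63.8 FPKM from G1 to G4 in mouse 1 and 69.88, 73.36, 55.1 and 68.25 in mouse 2. In mouse 3 it was 85.98, 53.9, 71.84 and 72.41 FPKM, so that no mouse climbed at each step. The linear term was -0.01 per step, with a 95% interval of -0.13 to 0.10 (limma adjusted p = 0.928), and turned above 0 under quantile normalization and under rescaling of each library to the same sum. Its upper bound lies below the lower bound for Slamf1, its neighbour on the chromosome, at 0.45. Since the groups were sorted by the product of Slamf1, this gap is given as a value only.

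Ly9 in these groups lay between 0.3574 FPKM (G1, mouse 2) and 3.558 (G3, mouse 1). From G1 to G4 it went from 0.812 to 2.693 in mouse 1, from 0.3574 to 2.698 in mouse 2 and from 2.633 to 2.113 in mouse 3. The linear term of 0.28 (interval 0.05 to 0.50) had an adjusted p of 0.352 in limma. Cd48 was 0 to 0.0172 FPKM in G1, 0 to 0.6154 in G2, 0.00283 to 0.8277 in G3 and 0 to 0.04302 in G4, under the filter in each of them.

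**Figure D2:**
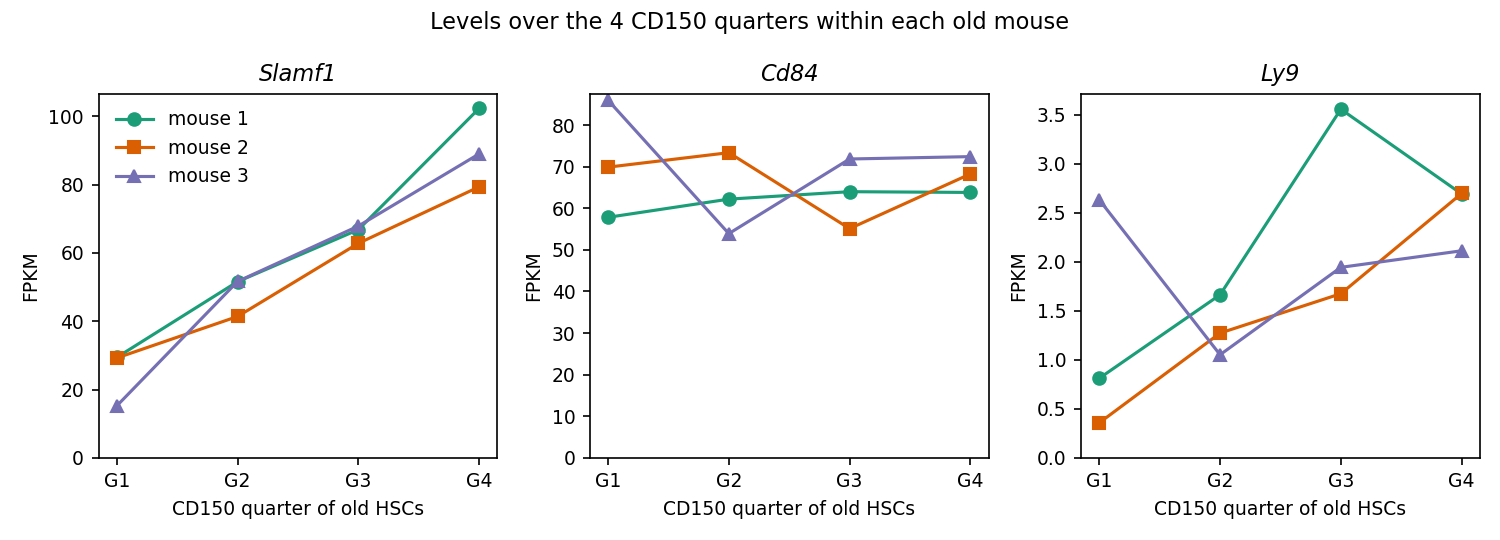
Slamf1, Cd84 and Ly9 (FPKM, linear axes from 0) over the CD150 groups G1 to G4, with 1 line per old mouse. Slamf1 climbs in all 3 mice, Cd84 stays between 53.9 and 85.98 FPKM, and Ly9 goes up in mice 1 and 2 but not in mouse 3.

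In the direct comparison of G4 with G1, Slamf1 differed by 1.88 (SE 0.273, interval 1.26 to 2.51) with an adjusted p of 0.147 in limma, although no G1 library reached any G4 library, which 14.5% of genes also showed in one direction or the other. In this comparison 0.0262% of the 11466 genes tested were called and 0 of the 3 members tested, and 738 genes and 1 member, Slamf1, had an unadjusted p under 0.05. Without G1 mouse 3, one of the libraries that stood apart, Slamf1 was called at 1.58 and an adjusted p of 0.000412. With a shared estimate of the spread over all 8 groups its adjusted p was 5.58e-05.

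G1 was also set against young HSCs in these genes. G1 was picked for low CD150, the product of Slamf1, and young HSCs were not split by it. The Slamf1 values below therefore describe the sort and cannot show whether G1 resembles young cells. Slamf1 was 24.6 ± 8.14 FPKM (SD, n = 3) in G1 and 22.9 ± 4.98 in young HSCs, a difference of 0.06 with an interval of -0.64 to 0.76 (limma adjusted p = 0.949) that turned to -0.08 under quantile normalization. Cd84 was 57.82 to 85.98 FPKM in G1, above the 36.06 to 44.53 of young HSCs, and 23.9% of genes were separated in this way. This difference was 0.82 (interval 0.35 to 1.30, limma adjusted p = 0.126) and was not called. Cd48 was at most 0.0172 FPKM in G1, below all young libraries, with a difference of -2.01 and a limma adjusted p of 0.0945. None of the 4 members tested was called, where 0.596% of 11408 genes were, and 2 members, Cd48 and Cd84, had an unadjusted p under 0.05. Without G1 mouse 3, Cd48 was called at an adjusted p of 0.0165, and with all groups sharing the spread at 0.0036. G1 and young HSCs were both sorted without CD48. Cd48 passed the filter through the young group only, so that a call could not have gone in the other direction. The young libraries serve in both this comparison and that of old with young HSCs. Unselected old HSCs did not always lie within G1 to G4 by group mean. For the pathway gene Plcg2 they stood at 24.4 FPKM against 38.7 to 45.4, and for Ptpn6 at 93.4 against 133.5 to 148.7. Becn1 lay within, at 76.0 against 75.3 to 88.7. A difference between the 2 series of libraries therefore cannot be told apart from one between G1 and young HSCs.

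Day 4 and fresh cells differed in 3 members, with Cd48 higher and Cd84 and, in CD150-high cells, Slamf1 lower after transplantation. Ranges did not overlap with the fresh group for 43.1% of genes in CD150-low and 56.0% in CD150-high cells. Cd48 was 42.16, 94.27 and 53.39 FPKM in the CD150-low day 4 libraries and 0, 0.002809 and 0.0172 in G1. In the CD150-high day 4 libraries it was 13.41, 16.23 and 25.03 FPKM, against 0.04302, 0.001442 and 0 in G4. All 6 transplanted libraries were above all 18 fresh libraries, which had been sorted without CD48. The share of all genes separated in this way was not counted. On the log2(FPKM + 1) scale Cd48 rose by 5.91 (SE 0.347, limma adjusted p = 0.000105) in CD150-low cells and by 4.20 (SE 0.31, limma adjusted p = 3.86e-06) in CD150-high cells. Cd48 passed the low-value filter only through the transplanted groups, so that its being called could not have gone in the other direction. The share of genes called higher was 5.84% in the CD150-low and 7.94% in the CD150-high comparison, and the share called lower 11.4% and 15.8%.

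Slamf1 fell in the CD150-high cells, from 102.3, 79.34 and 88.98 FPKM in G4 to 28.22, 26.88 and 33.25 on day 4. The ratio of the means was 0.327 and the difference -1.58 (SE 0.146, interval -1.90 to -1.26, limma adjusted p = 1.45e-05). G4 had been picked for high CD150, the product of Slamf1, and unselected old HSCs had a mean of 52.2 FPKM. The part of this choice in the fall was not tested. In the CD150-low cells Slamf1 was 14.18, 14.89 and 16.75 FPKM on day 4 against 29.4, 29.23 and 15.21 in G1. These libraries overlapped through G1 mouse 3, and the difference of -0.60 (interval -1.28 to 0.08) had a limma adjusted p of 0.175. The change of Slamf1 in CD150-high cells was not shown to differ from that in CD150-low cells, since the interaction was -0.98 with a limma adjusted p of 0.724, in a test that called 0.00841% of genes and 0 of the 4 members (2 had an unadjusted p under 0.05).

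Cd84 fell on both sides. It was 36.63, 11.95 and 23.45 FPKM in CD150-low day 4 cells, all below the 57.82 to 85.98 of G1, a difference of -1.64 (SE 0.37, limma adjusted p = 0.0153). In CD150-high day 4 cells it was 27.88, 28.59 and 22.88 FPKM, all below the 63.8 to 72.41 of G4, a difference of -1.34 (SE 0.143, limma adjusted p = 3.96e-05). With no filter on low values the CD150-low difference had an adjusted p of 0.0932. Ly9 was 1.709 to 4.237 FPKM in CD150-low and 1.082 to 6.697 in CD150-high day 4 cells, where 1 library of 6.697 stood above the other 2 at 1.508 and 1.082. Its differences were 0.92 (limma adjusted p = 0.158) and -0.03 (limma adjusted p = 0.968), and the first was called without G1 mouse 3, at 1.33 and an adjusted p of 0.0221.

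Of the 4 members tested, 1 was called higher and 1 lower in CD150-low cells, where 17.2% of 11584 genes were called. In CD150-high cells 1 was called higher and 2 lower, where 23.8% of 11528 genes were called. The member called higher was Cd48 both times, against fresh cells sorted without CD48 and with a direction fixed by the filter. Slamf1, called lower in CD150-high cells, was set against G4, picked for its product. These counts are therefore no result about the members beside the shares of all genes. The median difference of all genes tested was -0.17 and -0.21, and with quantile normalization 0.0002 and -0.02. Members named here as risen or fallen kept that direction under quantile normalization and under rescaling of each library to the same sum.

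Macrophage markers moved with these comparisons. The summed level of the 14 was 6.028 to 22.78 FPKM in old HSCs and G1 to G4, 28.5 to 34.49 in young HSCs, 63.79 to 414.8 in CD150-low and 141.9 to 365.2 in CD150-high day 4 libraries. Of those tested, 6 of 13 and 10 of 12 were called higher. C1qa, a complement subunit of macrophages, was 8.488 to 53.2 FPKM in transplanted libraries against 1.331 to 3.638 in young HSCs, at most 0.3446 in old HSCs and 0 in all libraries of G1 to G4. HSC markers were called lower for 9 of 12 genes in CD150-low and 8 of 12 in CD150-high cells. The part of these cells in the values of Cd48, Slamf1 and Cd84 was not tested.

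**Figure D3:**
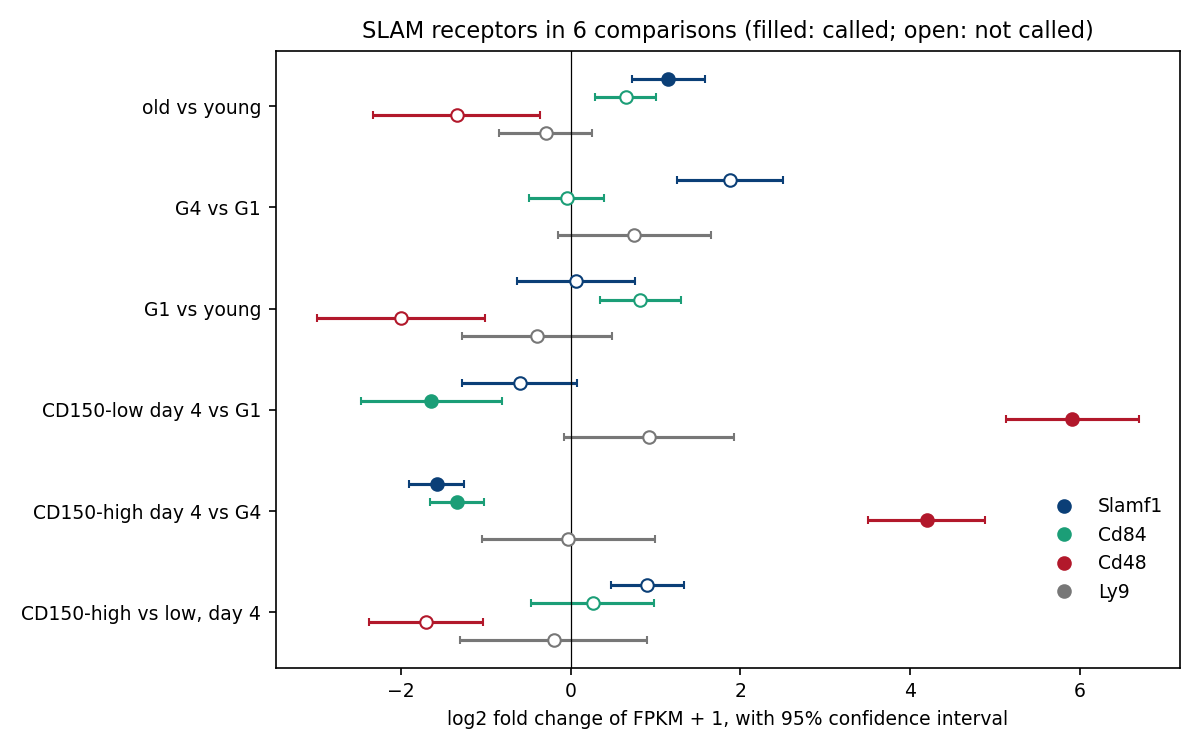
Difference of log2(FPKM + 1) (x axis, with its 95% interval) of the tested members in 6 comparisons, filled where called and open where not. Cd48 lies at 5.91 and 4.20 after transplantation, while Cd84 and, in CD150-high cells, Slamf1 lie below 0.

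Between the transplanted groups, the libraries of CD150-high and CD150-low cells did not overlap in Slamf1 or in Cd48, and neither difference was called. Slamf1 was 26.88 to 33.25 FPKM in CD150-high against 14.18 to 16.75 in CD150-low libraries, 1.93-fold by the means, a difference of 0.90 (interval 0.47 to 1.33). Cd48 was 3.47-fold higher in the CD150-low libraries, a difference of -1.70 for high minus low (interval -2.38 to -1.03). Such a separation was seen for 13.2% of the 11077 genes tested. The limma adjusted p-values were 0.329 for Slamf1 and 0.282 for Cd48. In fresh cells the Cd48 of G1 and G4, given above, overlapped and lay under the filter. In this comparison 0 genes were called in all, while 826 genes and 2 members had an unadjusted p under 0.05. Cd84 (0.26, interval -0.47 to 0.99) and Ly9 (-0.20, interval -1.30 to 0.90) had wide intervals around 0.

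Slamf6, the homophilic receptor Ly108 of lymphocytes, and Slamf7, the receptor CRACC of NK and plasma cells, were near the floor of the tables. Slamf6 was listed at 0 in 9 of 24 libraries and reached 1 FPKM in 1 library, at 1.187 in CD150-low day 4 replicate 3. Slamf7 was listed at 0 in 17 of 24 libraries and was at most 0.2298 FPKM. Neither passed the filter in any group, so no comparison tested them. In a fit with no filter, neither was called in any of the 8 fits.

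Other genes of the pathway were described by the same tests. Of 4 other receptors and ligands, 1 was tested in fresh comparisons, and of 20 adaptors and effectors, 17 were. Limma called none of them in old against young HSCs, in G4 against G1, in the linear term or in G1 against young HSCs, while 1, 3, 3 and 2 of the 18 had an unadjusted p under 0.05. Over all genes 3.65%, 0.0262%, 0.386% and 0.596% were called, so a count of 0 among 18 does not set the list apart. Sh2d1a, which encodes SAP, and Sh2d1b1 and Sh2d1b2, which encode EAT-2 proteins, had group means of 0 to 0.579 FPKM. The phosphatase SHP-1 gene Ptpn6 was at 93.4 to 148.7 FPKM by group mean, the lipid phosphatase SHIP1 gene Inpp5d at 21.3 to 46.3 and the kinase gene Fyn at 11.3 to 19.5.

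After transplantation, Cd244a, the receptor of CD48, rose in CD150-low cells to 3.046, 2.847 and 4.521 FPKM from 0.9202, 0.1138 and 0.001516 in G1, a difference of 1.78 (SE 0.365, limma adjusted p = 0.011). It passed the filter only through the CD150-low day 4 group, so that it could not have been called lower. It was 0.1444, 6.73e-31 and 0.5404 FPKM in CD150-high day 4 cells, under the filter. Dok2, an adaptor downstream of tyrosine kinases, rose on both sides, from group means of 16.6 to 54.0 FPKM (limma adjusted p = 0.0264) and of 22.4 to 70.1 (limma adjusted p = 0.000275). In CD150-high cells its relative Dok1 fell from 19.4 to 4.77 FPKM (limma adjusted p = 0.000102). There Slamf8, a receptor of myeloid cells without switch motifs, fell from 6.57 to 0.711 FPKM (limma adjusted p = 0.00142), and having passed the filter through G4 only, it could not have been called higher. The phospholipase gene Plcg2 fell there from 40.0 to 19.0 (limma adjusted p = 0.00424). In all, 2 of the 19 tested were called, both higher, in CD150-low cells, and 1 higher and 3 lower of 19 in CD150-high cells. Neither share exceeded that of all genes, at 17.2% and 23.8%, so the counts set the list apart in neither comparison.

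The genes around the cluster were tested in the same fits. Of the 41 protein-coding genes within 500 kb, 40 were in the tables and 27 were tested in old against young HSCs, of which limma called 0, against 3.65% of all genes, and 3 had an unadjusted p under 0.05, against 2149 of all 11279. F11r, a junction adhesion molecule, was at 29.3 FPKM in young and 46.6 in old HSCs (0.64, limma adjusted p = 0.0398), under the fold threshold. Limma called no neighbour over G1 to G4 or in G1 against young HSCs (0 and 3 had an unadjusted p under 0.05). In CD150-low day 4 cells 2 of 29 neighbours were higher (Cd244a and Igsf8) and 3 lower (Pcp4l1, F11r and Dcaf8), where 17.2% of all genes were called. In CD150-high cells 1 of 27 was higher (Arhgap30) and 6 were lower (Pcp4l1, B4galt3, Ppox, Klhdc9, F11r and Dcaf8), where 23.8% of all were called. Cd244a and Klhdc9 passed the filter only through the group where they were high.

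Over all 24 libraries, as a description with no test, the genes most like Slamf1 among 12092 were Mindy1 (Pearson's r of log2(FPKM + 1) 0.946), Sbspon (0.908) and Rfk (0.908). Those most like Cd48 were C1qbp (0.967), Slc25a3 (0.965) and Psmc3ip (0.955), and those most like Cd84 were Ubl7 (0.963), Angpt1 (0.948) and Mmrn1 (0.944). Ly9 had looser companions, with Alox5 at 0.716, Lilrb4a at 0.691 and Il2ra at 0.674. Among the members, Cd48 and Cd84 ran against each other (-0.938), Slamf1 and Cd84 ran weakly together (0.604), and Slamf1 and Cd48 apart (-0.677). The libraries share groups, sorts and the split between fresh and transplanted cells, so these values describe the same contrasts as above.

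In scRNA-seq, 1104 young HSCs, 2758 old HSCs, 2406 CD150-low and 1933 CD150-high progeny were kept, with medians of 14501.5, 13357.5, 19435.5 and 30651 UMIs (unique molecular identifiers, each marking 1 captured transcript). Libraries shared at most 3 cell barcodes. A single library per condition allows no test, and intervals (exact Poisson for CPM, the UMIs of a gene per 1000000 UMIs of the library, and exact binomial for shares, at 95%) cover counting error only. Slamf1 was at 37.7 CPM (34.8 to 40.7) in young and 34.6 CPM (32.8 to 36.5) in old HSCs, a ratio of 0.918 (0.835 to 1.01; 0.879 after the thinning below) where the bulk libraries gave 2.28. The bulk and single-cell libraries are separate sorts, and the cause of the gap was not tested. Cells with at least 1 Slamf1 UMI made up 39.4% of young and 34.3% of old HSCs, and 28.04% and 25.98% with all cells thinned to 9514 UMIs (91 young and 295 old cells were shallower and not used).

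Cd84 was at 66.7 CPM (62.8 to 70.6) in young and 78.5 in old HSCs, a ratio of 1.18 (1.1 to 1.26), and was found in 44.6% and 51.3% of thinned cells. Ly9 was at 7.35 and 6.1 CPM. Cd48 was nearly missing, with 17 UMIs in 17 of the young cells and 5 UMIs in 5 of the old cells, or 0.991 and 0.129 CPM. Its shares were 1.54% and 0.181%. Among genes of other cell types in the same cells, the red cell globin gene Hbb-bs was found in 10.7% and 6.2%, the B cell gene Cd79a in 0 young (which allows up to 0.272%) and 0.399% of old cells and the T cell gene Cd3e in 0 cells of both (up to 0.272% and 0.109%), so the Cd48 shares lay within the range of such genes and are given as values only. Of the 17 young UMIs, 11 lay in cluster 4 of the fresh cells, led by replication genes (Mcm5, Uhrf1), where 3.3% of 333 young cells had one at a median depth of 19436 UMIs, against 0.574% of 697 in cluster 2 at 12543. Ly9 was found in 9.78% of young and 7.43% of old cells. Slamf6 gave 0 UMIs in young cells, which allows a share of cells with a UMI of up to 0.272%, and 3 in old cells, and Slamf7 gave 0 in both, which allows up to 0.272% of young and 0.109% of old cells. These limits are for cells with a UMI and not for cells that express the gene. They were set at 3 cells of those kept and are not exact binomial bounds. For a gene with 0 UMIs, the upper bounds of the exact binomial intervals were 0.334% of young and 0.134% of old cells.

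By day 14 Cd48 was found in most cells. It was at 241.4 CPM (237.1 to 245.7) in CD150-low and 157.6 (154.5 to 160.7) in CD150-high progeny, and 76.5% and 59.3% of cells had at least 1 UMI (75.5% and 47.6% with cells thinned to 10878 UMIs, without 395 and 39 shallower cells). Slamf1 stood the other way, at 16.5 CPM (15.4 to 17.7) in CD150-low and 35.0 (33.6 to 36.5) in CD150-high progeny, a ratio of high over low of 2.12 (1.96 to 2.3). For Cd48 the ratio was 0.653 (0.636 to 0.67). Cd84 differed little, at 54.7 and 50.6 CPM, a ratio of 0.925, and 0.991 in thinned cells. Ly9 was at 7.77 and 5.8 CPM, with a thinned ratio of 0.944. The order of CD150-low and CD150-high cells in Slamf1 and Cd48 was the same as in the day 4 bulk libraries. Cd244a was at 34.3 CPM in CD150-low and 18.7 in CD150-high progeny, against 0.758 and 0.284 in young and old HSCs.

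Within each progeny library, the share with a Cd48 UMI was lower among cells with a Slamf1 UMI than among the others. Among CD150-low progeny, Cd48 was found in 55.0% (49.2 to 60.8) of thinned cells with Slamf1 and in 79.0% (77.04 to 80.95) of those without. Among CD150-high progeny these shares were 29.1% (25.4 to 33.1) and 55.4% (52.7 to 58.1). Cd84 went the other way, at 53.0% and 41.6% in CD150-low and 49.3% and 40.5% in CD150-high progeny, with and without Slamf1. Ly9 was found in 2.35% of CD150-low cells with Slamf1 and 7.94% of those without, and in 3.75% and 7.95% of CD150-high cells. In fresh HSCs, Cd84 was as frequent with Slamf1 as without within the intervals, at 46.5% and 43.9% in young and 51.7% and 51.1% in old cells.

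**Figure D4:**
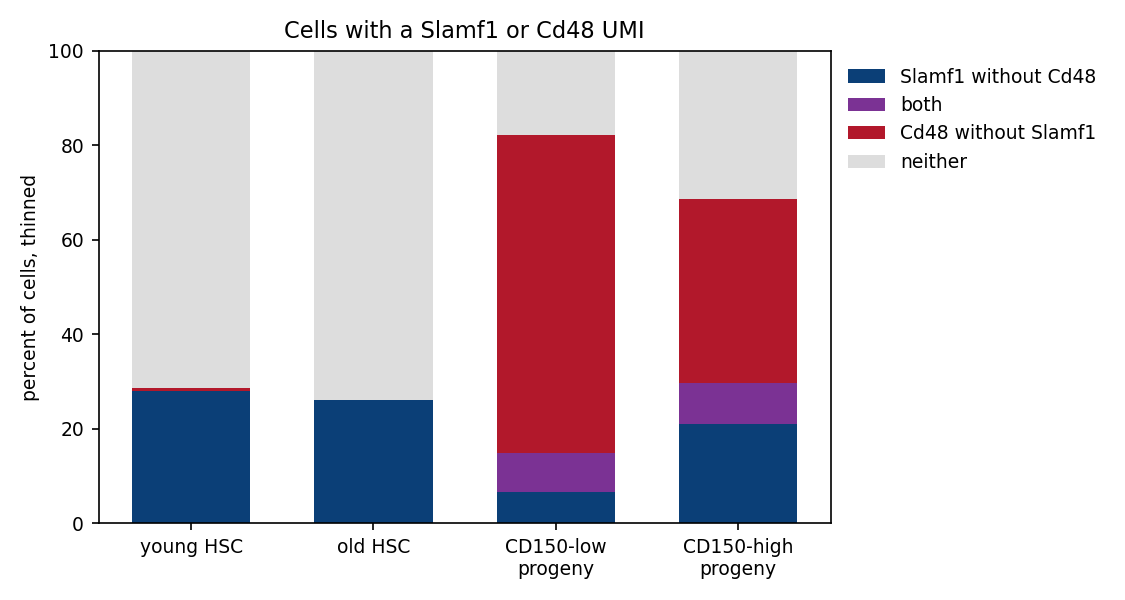
Share of cells (percent of cells, each thinned to 9514 UMIs for HSCs and 10878 for progeny) with a UMI of Slamf1, Cd48, both or neither, in the 4 libraries. Fresh HSCs hold 28.04% and 25.98% with Slamf1 and almost none with Cd48, and Cd48 without Slamf1 makes up 67.3% of CD150-low and 39.0% of CD150-high progeny.

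Thinned CD150-low progeny with Slamf1 but not Cd48 were 6.66% and CD150-high progeny 21.0%, while cells with both were 8.16% and 8.61%. Neither gene was seen in 17.9% and 31.4%. By cell cycle phase, a score that also reads depth and free RNA, Cd48 was at 178.1 CPM in G1-phase, 273.9 in S-phase and 247.5 in G2/M-phase CD150-low progeny. Slamf1 was at 21.3, 15.0 and 14.8 CPM in the same cells and Cd84 at 78.9, 44.7 and 49.5. In CD150-high progeny Cd48 was at 104.7, 173.1 and 162.8 CPM, Slamf1 at 43.7, 32.5 and 34.1 and Cd84 at 75.5, 42.6 and 48.9. In both libraries Cd48 was thus lowest and Slamf1 and Cd84 highest in G1-phase cells.

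The progeny were clustered without the 6 members into 7 clusters, each described by its leading genes. Cluster 2 (Pf4, Vwf) was megakaryocyte-like and cluster 5 (Car1, Klf1, Gata1) erythroid-like, as at least 3 of their top 10 genes were markers of these lineages, a threshold set after the clusters were seen. The top 10 of cluster 2 also held Clu and Ehd3, which the paper counts, with Vwf and Cavin2, among HSC aging markers. Its name therefore does not part megakaryocyte-like from HSC-like cells. The paper reports that cells like long-term HSCs were enriched in CD150-high progeny. Among these 7 clusters, Slamf1 in both libraries together was highest in the erythroid-like cluster, at 56.3 CPM. The megakaryocyte-like cluster followed at 53.0 and cluster 3, led by interferon-stimulated genes (Cxcl10, Ifit1), at 45.8. Slamf1 was 13.5 CPM in cluster 1 (Hlf, Ms4a4b), 7.02 in cluster 0 (Cd34, Cebpa), 5.6 in cluster 4 (Hba-a2, Ccnb2) and 1.84 in cluster 6 (Elane, Mpo). In cluster 6, led by granule genes, 4.92% of cells had a Slamf1 UMI at a median depth of 27861 UMIs. In the megakaryocyte-like cluster 70.7% did, at 28878. At a coarser and a finer resolution, the cluster highest in Slamf1 was not named erythroid-like. At resolution 0.3 Slamf1 was highest in the megakaryocyte-like cluster, at 55.9 CPM. At 0.8 it was highest, at 65.1 CPM, in an unnamed cluster of 362 cells led by Mfsd2b and Gata1. Of the marker lists, this cluster of 362 cells scored highest on the megakaryocyte one. It held 257 CD150-low and 105 CD150-high cells, where the erythroid-like cluster at 0.5 held 257 and 117. Mfsd2b, Gata1 and Aqp1 were among the top 10 genes of both. The cells they share were not counted, so the peak may lie in much the same cells under another name. The erythroid-like cluster held 24 cells at both of these resolutions and 374 at 0.5, so this name depends on the resolution. The cluster led by Cxcl10 scored highest on the HSC list at 0.3 and 0.8, with 12 markers detected and Procr in its top 10. At 0.5 it scored highest on the macrophage list.

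Cd48 was higher in the 4 clusters low in Slamf1 than in the 3 clusters high in it. It was at 325.9 CPM in cluster 0, 318.1 in cluster 4, 258.6 in cluster 1 and 191.2 in cluster 6, and at 41.7 in the megakaryocyte-like cluster and 40.8 in cluster 3. The erythroid-like cluster lay between these at 123.6 CPM. The order was not a full mirror, since cluster 6, lowest in Slamf1, was not the highest in Cd48. Cd84 varied by 1.87-fold from the lowest to the highest cluster, where Slamf1 varied by 30.5-fold and Cd48 by 8.0-fold. At the coarser resolution of 0.3, with 7 clusters, Cd84 varied by 8.5-fold, and at the finer one of 0.8, with 12, by 9.53-fold. Both came through an erythroid-like cluster of 24 cells at 8.2 CPM. Ly9 was highest in cluster 4 at 11.5 CPM and lowest in the erythroid-like cluster at 1.67. Of the 27 Slamf7 UMIs in CD150-low progeny, 20 lay in cluster 6. At resolution 0.8, Slamf7 was highest at 18.6 CPM in an unnamed cluster of 55 cells led by Cd74 and H2-Eb1. That cluster was apart from the one led by Elane, and it was also highest in Ly9 (17.7 CPM) and Slamf6 (2.79 CPM).

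**Figure D5:**
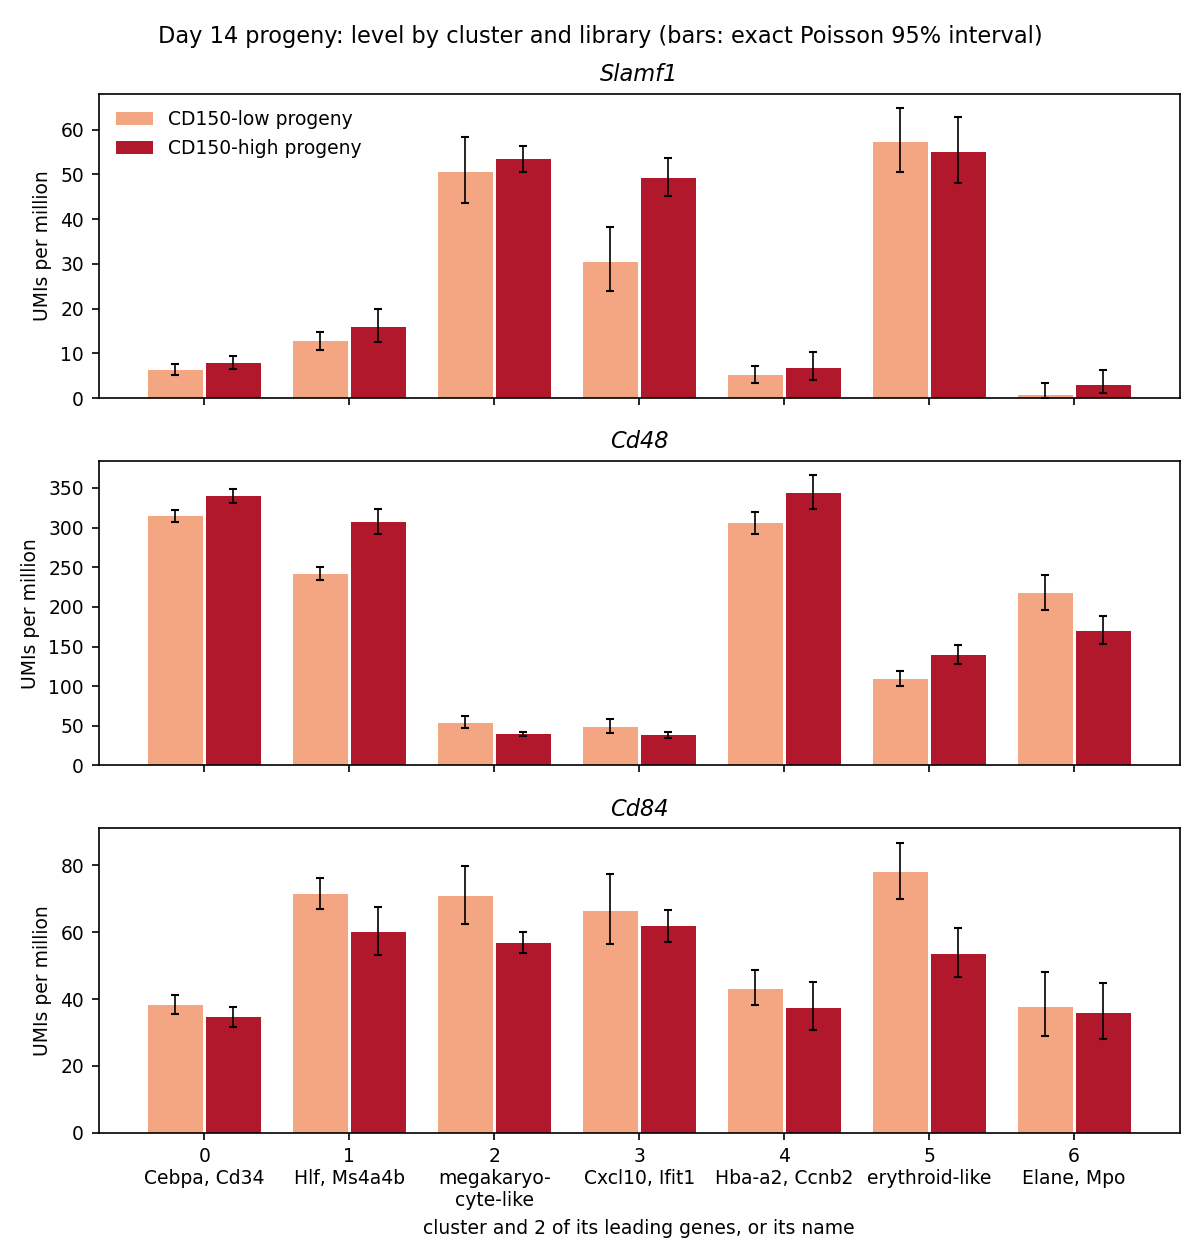
CPM of Slamf1, Cd48 and Cd84 (linear axes from 0) in the 7 clusters of day 14 progeny, with 1 bar per library and exact Poisson 95% intervals. Slamf1 is high in clusters 2, 3 and 5 and Cd48 in clusters 0, 1, 4 and 6, in both libraries.

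Both libraries held all 7 clusters in different proportions. The megakaryocyte-like cluster took 181 CD150-low and 728 CD150-high cells, and cluster 1 took 794 and 182. Within clusters, the ratio of CD150-high over CD150-low progeny lay nearer to 1 than over all cells in 6 of 7 clusters for Slamf1, in 7 of 7 for Cd48 and in 5 of 7 for Ly9, but in 2 of 7 for Cd84. It ran from 0.961 to 4.88 for Slamf1 and from 0.736 to 1.28 for Cd48. For Cd84 it ran from 0.686 to 0.952 and for Ly9 from 0.474 to 4.12, the last resting on few UMIs. The highest Slamf1 ratio, in cluster 6, had an interval of 0.592 to 224. Only in the erythroid-like cluster was the Slamf1 ratio under 1. Slamf1 was at 50.5 and 53.4 CPM in the megakaryocyte-like cluster of CD150-low and CD150-high progeny, a ratio of 1.06 (0.906 to 1.24), and at 57.4 and 55.1 in the erythroid-like cluster, a ratio of 0.961 (0.798 to 1.16). Cluster 3 differed more, at 30.5 and 49.3 CPM, a ratio of 1.62 (1.26 to 2.09). With the clusters given the same share of UMIs in both libraries, an alternative chosen after seeing the data, the ratio of high over low became 1.16 for Slamf1 instead of 2.12. For Cd48 it became 1.09 instead of 0.653, so its direction turned. Cd84 stood at 0.843 and Ly9 at 0.977.

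Fresh HSCs fell into 6 clusters, left unnamed, of which clusters 0, 1 and 3 were nearly all old and cluster 2 nearly all young cells. With 1 library per age, the parting of cluster 2 from clusters 0, 1 and 3 may reflect libraries rather than cell states. The parting among clusters 0, 1 and 3 lay almost wholly within the old library. Slamf1 ranged from 26.1 to 44.4 CPM over the 6 clusters and Cd84 from 42.6 to 94.1. Both were lowest in cluster 5, led by mitotic genes (Mki67, Birc5), and highest in cluster 3. Neither gene was missing from any cluster of fresh HSCs.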

How the data were processed

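Bulk RNA-seq libraries were deposited by the authors as FPKM per gene. They trimmed reads with Trim Galore and aligned them with HISAT2 2.0.0 to mm10, with counting that ignores strand, so overlapping and antisense genes are uncertain. The processing notes list Cufflinks and HTSeq 0.12.4, and which tool made the FPKM is not given in the sources used here. scRNA-seq counts of UMIs were deposited by the authors from Cell Ranger on mm10. Methylation, ATAC-seq and CUT&RUN samples were not analysed here.

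Repeated symbols (10 rows per table) were summed. For tests, R 4.3.3 and limma 3.58.1 were run with a pseudocount of 1 and a minimum mean of 1 FPKM. On simulated old against young data, 100% of 200 genes changed by 2 on the log2 scale were recovered among 11000, with 0 false calls. The simulation gave every gene the same median spread and changed only genes above 3 on the log2(FPKM + 1) scale. It therefore cannot show how the test does on genes as low as Ly9, on unequal spreads or on smaller changes. The linear term, the interaction and the comparison of transplanted groups had no fold threshold. Since G1 to G4 come from the same 3 mice by their labels, a fit with the mouse as a block was the alternative. The correlation of deviations with the same mouse was -0.426 to 0.48 between G1 and G2 and 0.002 to 0.183 between the other pairs of these groups. With a different mouse it was -0.542 to 0.616 between G1 and G2 and -0.171 to 0.037 between the others. These values therefore do not show the pairing of G1 with G2 by mouse. Numbers of other groups are only names.

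Cells under 800 (HSCs) or 2000 (progeny) genes or over 5% mitochondrial UMIs were removed. Scrublet in scanpy 1.11.5 called 29 of 8201 cells (0.354%), too few to have worked, so doublets were left in. Clusters came from Seurat 5.3.0 (2000 variable genes, 20 components, resolution 0.5), and thinning was to the 10th percentile of UMIs of the 2 libraries compared. The members and the other SLAM receptors and ligands were left out of the variable genes. Cell cycle scores were regressed out for the progeny clusters but not for those of fresh HSCs. Members, gene lists and tests were chosen with earlier results of these data known. Named genes are the members, called pathway genes, called neighbours within 500 kb and the 3 genes most correlated with each member.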

Additional observations from a re-analysis of the deposited data

How the results depend on the processing

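Counts of called genes moved with the filter, the fit, the scaling and single libraries. With no low-value filter they were 50 higher and 11 lower in old against young HSCs (217 and 195 as reported), 0 and 0 in G4 against G1 (2 and 1), 16 and 1 in the linear term (32 and 13), 6 and 2 in G1 against young (58 and 10), 348 and 643 in CD150-low day 4 cells (677 and 1317), 2 lower between the transplanted groups (0) and 2 and 5 in the interaction (1 and 0). There Slamf1 was 1.15 (adjusted p = 0.137) with age and Cd84 -1.64 (adjusted p = 0.0932) in CD150-low cells. With all groups in 1 fit, calls were 25 and 13 in G4 against G1, 34 lower in the linear term, 382 and 57 in G1 against young, 21 and 11 between the transplanted groups and 0 and 2 in the interaction, with Slamf1 at 1.88 (adjusted p = 5.58e-05) in G4 against G1 and Cd48 at -2.01 (adjusted p = 0.0036) in G1 against young. Rescaling to a sum of 1000000 gave 0 higher in G4 against G1 and 2787 lower in CD150-high cells (1824 as reported), and Cd84 turned to 0.0015 in G4 against G1 and 0.0076 in the linear term. Quantile normalization gave 23 lower in the linear term, 18 lower in G1 against young, 843 lower in CD150-low and 1119 lower in CD150-high cells. It turned Cd84 to 0.0025 in the linear term, Slamf1 to -0.0771 in G1 against young and Ly9 to 0.37 in CD150-high cells. A pseudocount of 0.1 gave 8 lower in the linear term. The split of called genes moved by scaling too, with 34% of the calls in CD150-low cells higher as reported, 48.3% under quantile normalization and 20.7% under rescaling, and 33.4%, 48.6% and 18.2% in CD150-high cells. The cause of these shifts was not tested.

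With the replicate block, which pairs G1 to G4 by mouse, G4 against G1 had 0 genes higher. In the other comparisons the libraries share a number and no known origin, and the block gave 30 higher and 6 lower in G1 against young (correlation of same-numbered deviations -0.109 to 0.079) and 2 higher and 1 lower between the transplanted groups (-0.073 to -0.004), counts that rest on no pairing. The block changed no call of a member.

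Leaving out 1 library at a time gave 113 to 218 genes lower with age, 0 to 40 higher and 0 to 12 lower in G4 against G1, 18 to 103 and 4 to 56 in the linear term, 10 to 562 and 1 to 110 in G1 against young, 359 to 829 and 518 to 1868 in CD150-low cells, 0 to 2 and 0 to 8 between the transplanted groups and 0 to 11 lower in the interaction. Ranges of the linear term here also cover the fit without both libraries that stood apart, G1 mouse 3 and G2 mouse 2. Ranges of differences with age were 0.98 to 1.33 for Slamf1 and -1.85 to -1.01 for Cd48. In G4 against G1 they were 1.58 to 2.04 for Slamf1 and -0.19 to 0.10 for Cd84, and in the linear term -0.0394 to 0.0461 for Cd84. In G1 against young they were -0.11 to 0.36 for Slamf1 and -2.50 to -1.67 for Cd48. Ly9 spanned 0.62 to 1.33 in CD150-low, -0.61 to 0.33 in CD150-high cells and -0.78 to 0.16 between them, and Cd84 -0.15 to 0.62 there and -0.10 to 0.67 in the interaction. The reported log2 ratios of CPM in progeny moved with thinning to -0.74 for Cd48, -0.013 for Cd84 and -0.0831 for Ly9, and with the same cluster shares, added after seeing the data, to 0.21 for Slamf1, 0.12 for Cd48, -0.25 for Cd84 and -0.0342 for Ly9. Among all recomputed values of members, 403 kept their direction and side of the threshold or moved by less than their error, 21 turned direction, 6 passed the threshold anew, 3 lost it and 6 moved by more than their error.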
